A study of Mus musculus with 2 samples.

Results

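Metallothioneins Mt1 and Mt2 and the zinc transporter Slc30a8, 3 of the 27998 genes in the count matrices, were followed across the cell classes of mouse islets in 2 single-cell RNA-Seq libraries. The WT library came from wild-type mice and the GKO library from littermates that lack ghrelin, the acylated peptide hormone made by gastric cells and by rare islet cells. Both genotypes were of strain C57BL/6N, 8 weeks old and fed standard chow, and each library pooled the islets of 4 mice, from which live single cells were sorted. The GKO mice come from 1 knockout line (GKO1) in which ghrelin is missing from the whole body, so stomach and islet ghrelin cannot be told apart. The 3 genes were chosen from earlier results on these same libraries, and barcodes were grouped by their hormone UMIs (unique molecular identifiers, each standing for 1 captured transcript), so the values below are a description. Since each genotype has 1 library, nothing was tested, genotype and library cannot be told apart, and every interval is a 95% interval that covers counting error only.

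Metallothioneins are small cysteine-rich proteins of the cytosol that bind zinc and copper and buffer the free metal. Their genes are switched on by zinc through the metal-sensing factor Mtf1, which binds short metal response elements in their promoters, and also by glucocorticoids, inflammation and oxidative stress. Slc30a8 encodes ZnT8, the transporter that moves zinc from the cytosol into the insulin granules of β cells, where zinc packs insulin into crystals, and α cells are known to carry it too. Granule zinc is released together with insulin.

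Mt2 (ENSMUSG00000031762) lies at chr8:94172664-94173568 and Mt1 (ENSMUSG00000031765) at chr8:94179082-94180327 of GRCm38, both on the plus strand and each with 3 exons in its main transcript. The genes are neighbors, with 5513 bases between the end of Mt2 and the start of Mt1. Their transcripts share no exact run longer than 20 bases, which bears on how well reads of these paralogs can be told apart. Slc30a8 (ENSMUSG00000022315) lies at chr15:52295553-52335798 on the plus strand and has 8 exons.

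Promoter sequence is shown for the pair because their levels moved side by side in most classes. The RefSeq windows of 300 bases on GRCm38 were searched on both strands for the core of the metal response element, TGCACNC or TGCGCNC, none of whose matches overlapped another here. The Mt1 window (chr8:94178839-94179138) held 3 cores and the Mt2 window (chr8:94172368-94172667) held 4. Of all 32817 windows of the same length, 25.7% held at least 1 core, 1.31% at least 3 and 0.296% at least 4. The stretches printed below run 5′ to 3′ on the plus strand up to the transcribed part, from chr8:94178839-94179081 for Mt1 and chr8:94172368-94172617 for Mt2, with each core in capitals. Each stops before the earlier of the RefSeq and GENCODE starts, which for Mt2 is the RefSeq start and for Mt1 the GENCODE start. They hold 1 of the 3 Mt1 cores and 3 of the 4 Mt2 cores. The remaining Mt2 core, at chr8:94172622-94172628, lies past the RefSeq start but before the Mt2 gene start given above. The third line is the 30 bases of the Mt1 window richest in cores, chr8:94179086-94179115, just past the start of the annotated gene, and holds the other 2. A match says only that these letters are there, and a promoter of Slc30a8 was not analysed here.
Mt1 promoter: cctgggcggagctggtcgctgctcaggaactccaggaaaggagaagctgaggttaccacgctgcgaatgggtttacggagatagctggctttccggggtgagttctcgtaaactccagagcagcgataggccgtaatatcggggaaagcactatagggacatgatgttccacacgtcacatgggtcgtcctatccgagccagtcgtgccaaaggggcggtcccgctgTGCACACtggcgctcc
Mt2 promoter: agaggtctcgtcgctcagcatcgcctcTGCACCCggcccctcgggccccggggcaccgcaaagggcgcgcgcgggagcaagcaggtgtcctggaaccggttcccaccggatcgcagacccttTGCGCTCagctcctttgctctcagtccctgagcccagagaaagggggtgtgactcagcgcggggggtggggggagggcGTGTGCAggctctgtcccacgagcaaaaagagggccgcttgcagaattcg
Mt1, bases with most cores: agctcTGCACTCcgcccgaaaagTGCGCTC

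The WT matrix held 7792 barcodes and 158067110 UMIs, and the GKO matrix held 7289 barcodes and 103511757 UMIs. The limits of 500 genes or more and mitochondrial UMIs of 10% or less left 7100 barcodes in WT and 6346 in GKO, and 18 barcode sequences occurred in both libraries. Ghrl, which encodes ghrelin, accounted for 43634 UMIs in WT and 280 in GKO. A barcode was called insulin-led, glucagon-led, somatostatin-led or Ppy-led when that hormone led and held at least 10% of its UMIs, and nonendocrine when none did. Of the fixed β cell markers, 5 of 6 were highest in insulin-led barcodes in both libraries (Pdx1 was not), as were 5 of 6 α markers in glucagon-led ones. For δ and γ cells 3 of 5 and 2 of 3 markers were highest in their class. Nonendocrine barcodes were clustered without the 3 genes, and clusters were named from fixed markers.

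In the insulin-led barcodes, 2265 in WT and 872 in GKO, both metallothioneins were lower in GKO by more than 2-fold, while Slc30a8 was level. Mt1 had 24177 UMIs in WT and 3948 in GKO, or 272 and 120 CPM (the gene's UMIs scaled to 1000000 UMIs of the class). The log2 ratio of GKO to WT was −1.17 (95% interval −1.22 to −1.13), a 2.26-fold difference. Mt2 had 3943 and 638 UMIs, or 44.3 and 19.4 CPM, with a log2 ratio of −1.19 (−1.31 to −1.07). Slc30a8 had 35628 and 13260 UMIs, or 400.1 and 404.2 CPM, with a log2 ratio of 0.015 (−0.014 to 0.043). Insulin-led barcodes made up 31.9% of the barcodes kept in WT and 13.7% in GKO. The study proposes that GKO β cells may have been more fragile in handling, and cautions that only cells left after sorting were measured. The part of such a loss in these ratios was not tested.

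As a background, 1270 genes had at least 50 CPM in 1 library and 100 UMIs over both in insulin-led barcodes, and their median log2 ratio was 0.11. Of these genes 1.02% were lower in GKO by 1.5-fold or more, and 0.315% were higher. Mt1 was past that fold and stood 4th from the lowest. Mt2 did not reach 50 CPM there. Among the 14449 genes with at least 20 UMIs and no CPM limit, 4.99% were lower by that fold and 6.05% higher, and Mt1 and Mt2 were among the lower ones. The rule had used the same values, so nothing is read from these ranks.

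Transcript length moved with the libraries. The 56 tested genes with transcripts of at most 600 bases had a median log2 ratio of −0.21 in insulin-led barcodes, against 0.12 for the 849 genes of at least 1500 bases, and their medians in the other hormone classes lay between −0.26 and −0.20. Mt2 has a transcript of 511 bases, and Mt1 has a main transcript of 549 bases but counted with the longer genes here, by its longest annotated transcript of 1085 bases. The lowest ratio among the 56 short genes was −0.64. Neither metallothionein was in that set, because Mt2 did not reach 50 CPM and Mt1 was counted by its longer transcript. The part of length in the metallothionein ratios was not tested.

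**Figure D1:**
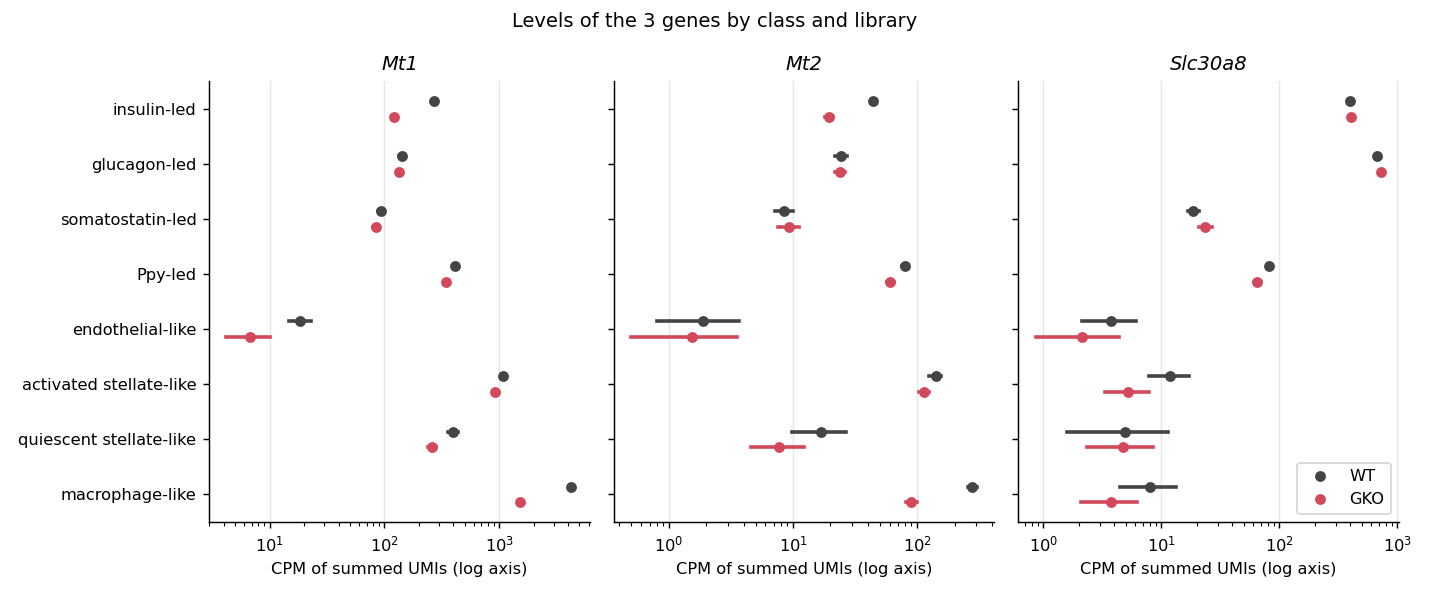
Level of each gene in CPM of summed UMIs (log axis) for 4 hormone classes and 4 nonendocrine classes, with WT in gray and GKO in red, points for the summed value and bars for the 95% counting interval. In insulin-led barcodes Mt1 stood at 272 CPM in WT and 120 in GKO, while Slc30a8 stood at 400.1 and 404.2 CPM.

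The lower sums of Mt1 were spread over the insulin-led barcodes. The median barcode held 113 CPM of Mt1 in WT and 41.2 in GKO, the upper quartile was 418 against 180 CPM, and the 90% quantile was 944 against 448 CPM. The most Mt1 UMIs found in 1 barcode were 251 in WT and 71 in GKO. The 10% of barcodes richest in Mt1 held 47.3% of its UMIs in WT and 50.9% in GKO. Concentration in few barcodes was thus alike in both libraries, whereas the level differed at each quantile given. Slc30a8 was far more even, with 21.2% and 21.6% of its UMIs in the richest 10% and median barcodes at 388 and 387 CPM.

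Shares of barcodes with a UMI were compared after thinning every barcode to 5000 UMIs, taken as the mean over all draws, which left out 7 WT and 1 GKO barcodes. Mt1 was then found in 48.8% (exact Clopper-Pearson interval 46.7 to 50.9) of insulin-led barcodes in WT and 33.6% (30.5 to 36.9) in GKO. Without thinning the shares were 81.1% and 66.4%, at median depths of 37124 and 35811 UMIs. Mt2 was found in 18.4% (16.8 to 20.1) and 9.90% (8.001 to 12.1) after thinning. Slc30a8 was found in 82.7% (81.1 to 84.3) and 81.7% (78.9 to 84.2), so its intervals overlapped. At least 5 Mt1 UMIs of 5000 were held by 11.98% of WT and 3.68% of GKO barcodes.

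**Figure D2:**
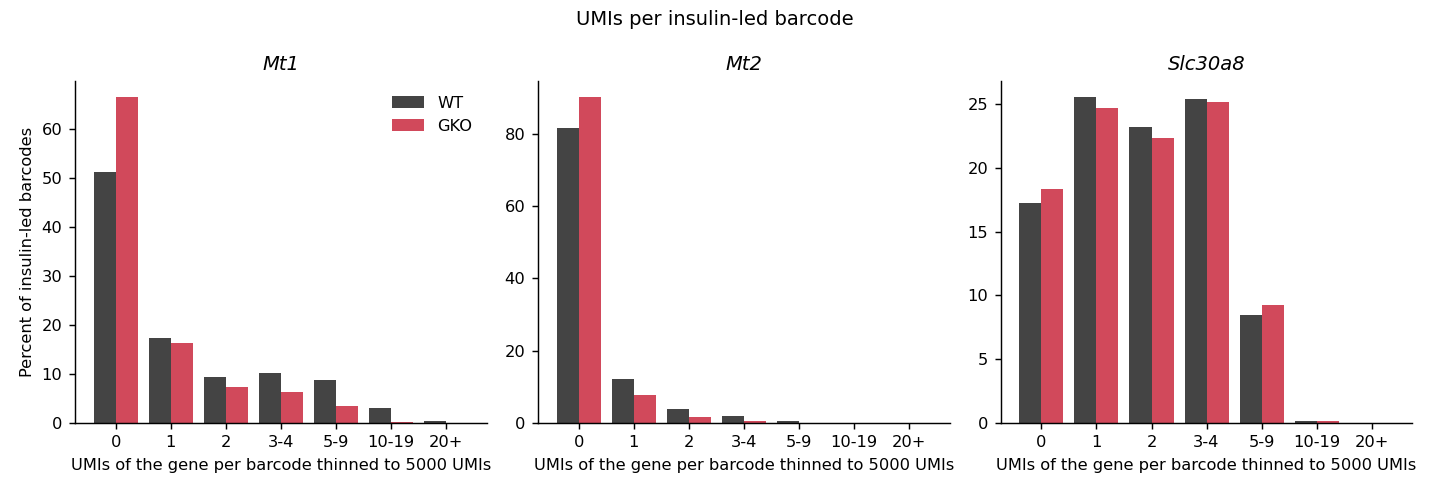
Percent of insulin-led barcodes (vertical axis, from 0) by their UMIs of Mt1, Mt2 or Slc30a8 after thinning to 5000 UMIs, with WT in gray and GKO in red. No Mt1 UMI was held by 51.2% of WT and 66.4% of GKO barcodes, and the bars for Slc30a8 nearly coincide.

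Free RNA in droplets gives UMIs to cells that do not make a transcript, and the endothelial-like barcodes, 541 in WT and 418 in GKO, were the large class lowest in all 3 genes. Mt1 was at 18.5 CPM (79 UMIs) in WT and 6.72 CPM (22 UMIs) in GKO there, a log2 ratio of −1.46 (−2.21 to −0.76), and Mt2 at 1.87 and 1.53 CPM. After thinning, 8.33% of WT and 3.17% of GKO endothelial-like barcodes held a Mt1 UMI, at median depths of 6745 and 6964.5 UMIs. In insulin-led barcodes Mt1 was at 272 and 120 CPM, and the part of free RNA in that difference was not tested. Slc30a8 was at 3.75 and 2.14 CPM in endothelial-like barcodes. Of the genes tested in that class, 1.31% were lower in GKO by 1.5-fold or more, and the 3 genes were too low to be among those tested.

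Markers of acinar cells, whose own cluster held 2925 CPM of Mt1 in WT, moved with the library in insulin-led barcodes. The 6 acinar markers summed to 394 CPM in WT and 89.5 CPM in GKO, with none of them at 0, and the 7 macrophage markers summed to 92.6 and 139 CPM. The acinar sums were lower in GKO in the other hormone classes too. They were 422 and 208 CPM in glucagon-led, 597 and 525 CPM in somatostatin-led and 340 and 239 CPM in Ppy-led barcodes. Keeping only insulin-led barcodes with at most 0.1% of UMIs from each list dropped 57 WT and 16 GKO barcodes. Over the remaining 2208 WT and 856 GKO barcodes the Mt1 ratio was −1.19 and the Mt2 ratio −1.15. This limit leaves foreign RNA at lower levels in place, and its part in the ratios was not tested.

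The difference in metallothioneins was found at each level of insulin. Among barcodes with insulin at 10 to 25% of UMIs, Mt1 had 664 CPM in WT and 256 CPM in GKO. At 25 to 60% it had 418 and 176 CPM, and above 60% it had 170 and 72.6 CPM. The log2 ratios were −1.37 (−1.57 to −1.18), −1.25 (−1.31 to −1.18) and −1.22 (−1.31 to −1.14). Mt2 gave −0.92, −1.29 and −1.40 in the same order. Because insulin is part of the total, CPM of other genes is lower by construction where insulin takes more of it, so levels between ranges were read over a total without hormone genes. On that scale Mt1 was at 1013 and 400.4 CPM in the first range, 994 and 409 CPM in the second and 594 and 244 CPM in the third, in WT and GKO. On the same scale Slc30a8 was higher where insulin was higher, at 393, 938 and 1425 CPM in WT and 566, 935 and 1369 CPM in GKO. Over all UMIs it was nearly level from the second range to the third. It was at 395 and 407 CPM there in WT and 403 and 407 CPM in GKO. Over all UMIs, Slc30a8 differed between libraries in the first range, which held only 53 WT and 37 GKO barcodes, where it had 258 CPM in WT and 362 CPM in GKO (log2 ratio 0.49, 0.28 to 0.70).

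Few barcodes lay near the 10% limit on insulin. Just inside it, at 10 to 15%, 14 WT and 7 GKO barcodes gave 417 and 224 CPM of Mt1. Just outside it, at 5 to 10%, 9 WT and 6 GKO barcodes gave 1415 and 221 CPM.

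The glucagon-led barcodes, 1048 in WT and 1397 in GKO, did not show the difference in metallothioneins. Mt1 was at 141 CPM in WT and 135 CPM in GKO, with a log2 ratio of −0.069 (−0.15 to 0.016), and Mt2 at 24.3 and 23.9 CPM, with −0.026 (−0.23 to 0.18). After thinning, a Mt1 UMI was found in 36.0% of WT and 35.0% of GKO barcodes. Slc30a8 was at 667 and 724 CPM, a log2 ratio of 0.12 (0.080 to 0.16), and was found in 93.4% and 95.02% of thinned barcodes. Of the genes tested in this class, 1.49% were lower by 1.5-fold or more, Mt1 was not among them, and Mt2 was too low to be tested.

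In somatostatin-led barcodes, 1414 in WT and 1003 in GKO, all 3 genes were at their lowest among the hormone classes. Mt1 was at 93.2 and 84.4 CPM, a log2 ratio of −0.14 (−0.26 to −0.025). Mt2 was at 8.50 and 9.29 CPM, with 0.13 (−0.25 to 0.51), a difference not detectable at 142 and 102 UMIs. Slc30a8 was at 18.7 and 23.6 CPM. No member was past 1.5-fold, and of the genes with at least 50 CPM, which did not include Mt2 and Slc30a8, 0.995% were lower by that much.

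Ppy-led barcodes, 717 in WT and 669 in GKO, held the most metallothionein of the hormone classes in CPM and stood between the others in their ratios. Mt1 was at 415 CPM in WT and 341 in GKO, a log2 ratio of −0.28 (−0.34 to −0.23). Mt2 was at 79.6 and 60.8 CPM, with −0.39 (−0.51 to −0.27). A Mt1 UMI was found in 62.6% and 55.04% of thinned barcodes. Neither gene was past 1.5-fold, and 1.11% of the genes tested in this class were lower by that much. Slc30a8 was at 82.4 and 65.3 CPM, with a log2 ratio of −0.33 (−0.45 to −0.22).

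**Figure D3:**
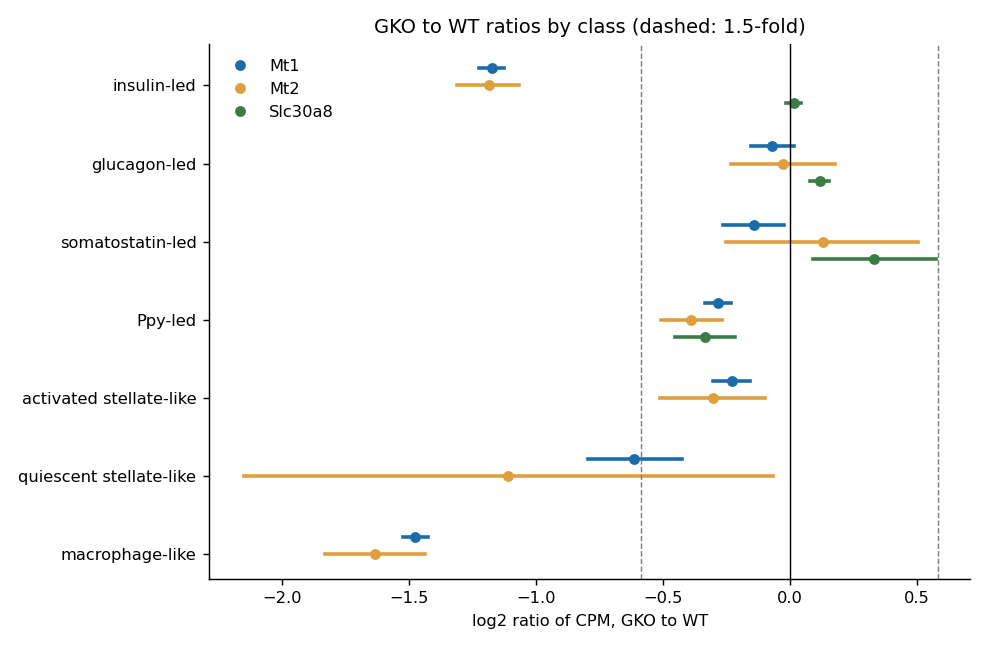
Log2 ratio of CPM in GKO to WT for each gene by class, with points for the ratio, bars for the 95% counting interval, a solid line at equal levels and dashed lines at 1.5-fold. Insulin-led and macrophage-like barcodes stand to the left for Mt1 and Mt2, at −1.17 and −1.48 for Mt1, while the intervals of glucagon-led barcodes cross the solid line for both genes. Mt2 in quiescent stellate-like barcodes lies at −1.11 with a wide interval. Slc30a8 is drawn only for hormone classes, and endothelial-like barcodes are not drawn.

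The insulin-led ratios of Mt1 and Mt2, −1.17 and −1.19, were lower than those in the other 3 hormone classes. How many other genes differ as much between classes was not counted. This compares these libraries and not the genotypes. In WT, insulin-led barcodes had more Mt1 than glucagon-led ones, 272 against 141 CPM. In GKO the order was turned, 120 against 135 CPM. That turn depends on the total, because hormone transcripts took 65.7% and 63.7% of UMIs in insulin-led barcodes and 30.6% in glucagon-led ones of both libraries. Counted over a total without hormone genes, Mt1 was at 792 CPM in WT and 332 CPM in GKO in insulin-led barcodes, and at 203 and 194 CPM in glucagon-led ones. For Slc30a8 the scale mattered as much. Glucagon-led barcodes were above insulin-led ones over all UMIs, whereas without hormone genes insulin-led barcodes were above, with 1168 against 962 CPM in WT and 1115 against 1043 CPM in GKO.

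Across the 4 hormone classes and the 4 large nonendocrine classes in WT, Mt1 was highest in macrophage-like barcodes (4258 CPM), followed by activated stellate-like (1079 CPM), Ppy-led (415 CPM) and quiescent stellate-like ones (397 CPM). Over all UMIs, Ppy-led and quiescent stellate-like barcodes did not differ beyond counting error, with intervals of 406 to 425 and 359 to 437 CPM. Insulin-led, glucagon-led, somatostatin-led and endothelial-like barcodes followed in that order. Hormone transcripts took 49.0% of UMIs in WT Ppy-led barcodes and 1.09% in quiescent stellate-like ones. Over a total without hormone genes, Mt1 in WT was at 815 CPM in Ppy-led and 792 CPM in insulin-led barcodes. The place of quiescent stellate-like barcodes against Ppy-led and insulin-led ones thus depends on the total. Macrophage-like barcodes stayed above both hormone classes on that scale, at 4301 CPM. Smaller classes of 15 to 45 WT barcodes also held much Mt1, with 2925 CPM in acinar-like, 2681 in B cell-like, 2442 in Gpr37l1+ stellate-like, 1487 in dendritic-like and 908 in ductal-like barcodes. For Slc30a8 the glucagon-led and insulin-led barcodes stood far above the Ppy-led ones, and those above the somatostatin-led ones. The 4 large nonendocrine classes were between 2.14 and 11.9 CPM.

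Slc30a8 outside the first 2 classes went with barcodes that carried another hormone. In somatostatin-led barcodes with under 1% of UMIs from insulin and glucagon it was at 10.2 CPM in WT and 11.6 CPM in GKO. At 1 to 5% it was at 14.2 CPM over 174 WT barcodes and 68.8 CPM over 68 GKO barcodes. The libraries differed most there, but on 26 UMIs in 9.20% of the WT barcodes and 45 UMIs in 14.7% of the GKO ones. With 5% or more it was at 334 CPM over 21 WT barcodes and 247 CPM over 20 GKO barcodes. In Ppy-led barcodes the values were 37.0 and 32.3 CPM under 1%, 141 and 131 CPM at 1 to 5%, and 259 and 237 CPM at 5% or more. That last range took 105 of the 717 WT and 65 of the 669 GKO barcodes, so the mixture differed between libraries. It held 683 of 1422 Slc30a8 UMIs in WT and 451 of 1016 in GKO. Mt1 did not climb with the share of other hormones in Ppy-led barcodes. It went from 436 to 374 to 346 CPM in WT and from 348 to 274 to 341 CPM in GKO. In somatostatin-led barcodes Mt1 did rise, though much less than Slc30a8. It went from 89.97 to 112 to 124 CPM in WT and from 82.6 to 91.7 to 117 CPM in GKO. The highest range there rests on 52 and 47 Mt1 UMIs. Barcodes that hold a pair of cells and cells that make both hormones cannot be told apart here.

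**Figure D4:**
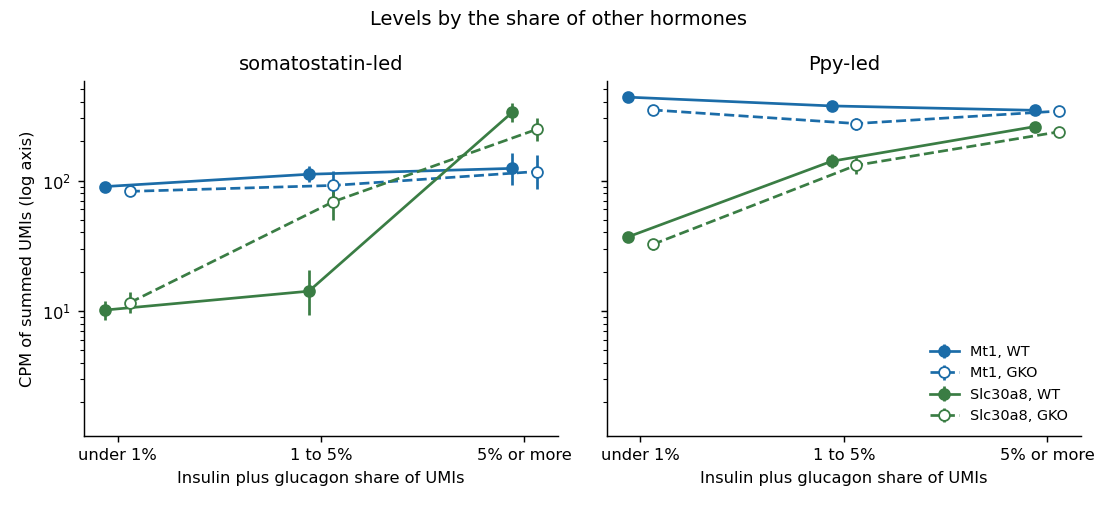
CPM of summed UMIs (log axis) of Mt1 (blue) and Slc30a8 (green) in somatostatin-led and Ppy-led barcodes by the share of UMIs from insulin plus glucagon, with solid lines and filled points for WT, dashed lines and open points for GKO, and bars for the 95% counting interval. Slc30a8 climbs from 10.2 to 334 CPM in WT somatostatin-led barcodes, while Mt1 rises from 89.97 to 124 CPM there.

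Macrophage-like barcodes, 178 in WT and 421 in GKO, were the richest in Mt1 of the large classes, with a difference of more than 2-fold. Mt1 was at 4258 CPM in WT and 1531 CPM in GKO, a log2 ratio of −1.48 (−1.52 to −1.43), and Mt2 at 279 and 89.7 CPM, with −1.63 (−1.83 to −1.44). The median barcode held 2812 and 802 CPM of Mt1, and its lower quartile was 879 and 272 CPM. Of the 2346 genes tested there, 4.22% were lower by 1.5-fold or more and 6.48% higher, both larger shares than in the hormone classes. Mt2 and Mt1 stood 4th and 11th from the lowest. The rule had used values of these same libraries, so nothing is read from these ranks. The class consisted of clusters in unlike proportions. One led by Ccl4, Mmp12 and Ccl3 had 143 WT and 249 GKO barcodes, with 4617 and 1594 CPM of Mt1 (log2 ratio −1.53). The other, led by F13a1, Pf4 and Mrc1, had 35 and 172 barcodes, with 2570 and 1417 CPM (−0.86). Mt1 was thus lower in GKO within both.

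In activated stellate-like barcodes, 242 in WT and 537 in GKO, the ratio of Mt1 was nearer to 0 in the class as a whole than in each of its clusters. Mt1 was at 1079 and 920 CPM (−0.23, −0.30 to −0.16) and Mt2 at 141 and 114 CPM (−0.30). Of the genes tested there, 3.16% were lower by 1.5-fold or more, and neither member was. The cluster led by Cilp, Penk and Gdf10 had 1456 and 962 CPM of Mt1 (−0.60), and the one led by Wif1, Igfbp2 and Mfap4 had 128 and 81.9 CPM (−0.65). The cluster led by Has1, Pcolce2 and Pi16 had 4854 and 2257 CPM (−1.10). The last cluster, richest in Mt1, took 19 of the 242 WT barcodes and 83 of the 537 GKO barcodes, so the mixture differed between libraries. Mt2 did not follow in each cluster, and in the one led by Wif1 it was higher in GKO, at 20.7 and 37.1 CPM (0.84, 0.12 to 1.60).

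In quiescent stellate-like barcodes, 203 and 420, Mt1 was at 397 and 259 CPM (−0.61, −0.80 to −0.43) and Mt2 at 16.7 and 7.74 CPM. Of the genes tested there, 3.26% were lower by 1.5-fold or more, Mt1 was among them, and Mt2 was too low to be tested. This class too mixed its clusters unequally. The cluster led by Rgs5, with 155 WT and 260 GKO barcodes, had 201 and 131 CPM of Mt1 (−0.62). The cluster led by Colec11 and Actg2, with 15 and 106 barcodes, had 1298 and 499 CPM (−1.38). The cluster led by Pln and P2rx1, with 33 and 54 barcodes, had 524 and 99.9 CPM (−2.39), so the last 2 lay further from 0 than the class as a whole.

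Over all 23 nonendocrine clusters, 21 held at least 20 UMIs of Mt1. Mt1 was lower in GKO in each of the 21, with log2 ratios from −3.20 to −0.49 and a median of −1.10. Nonendocrine means here only that no hormone held 10% of UMIs. The unnamed clusters led by Ttr and by Fam159b, described below, are among the 21. Of 863 genes with as many UMIs in each of these clusters, 1.62% were lower in all of them. Mt2 had 20 UMIs in 16 clusters and was lower in 14, where 6.69% of 882 genes were lower in at least as many. The lowest ratio of Mt1 came from the B cell-like cluster, with 2681 CPM over 22 WT barcodes and 291 CPM over 48 GKO barcodes. The acinar-like cluster gave 2925 CPM over 21 barcodes and 1016 CPM over 10. Of the 2 clusters under 20 UMIs, 1 led by Apln, Trp53i11 and Gpihbp1 had a higher value in GKO, 29.6 against 19.1 CPM.

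**Figure D5:**
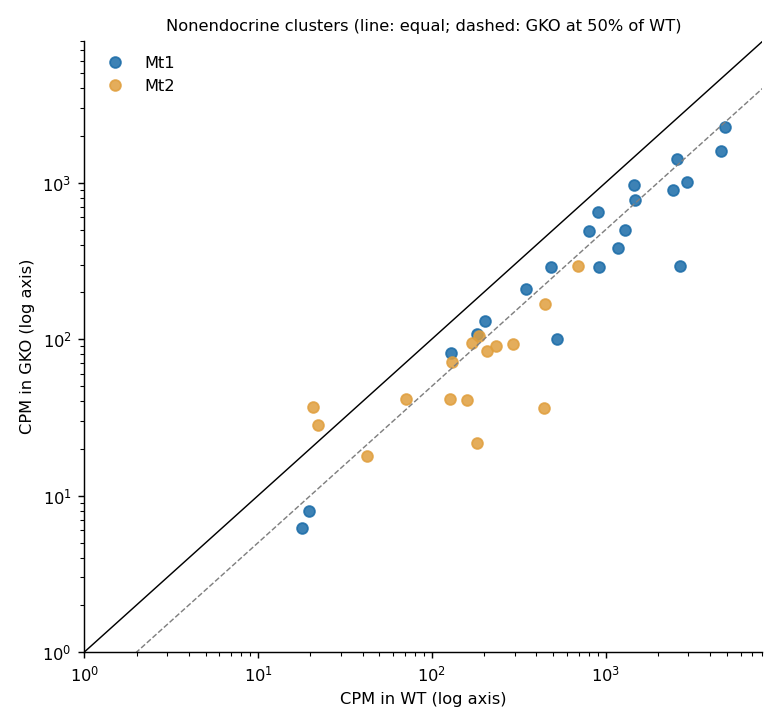
CPM in GKO against CPM in WT (both log axes) for Mt1 (blue, 21 points) and Mt2 (orange, 16 points), each point 1 nonendocrine cluster with at least 20 UMIs of the gene, with a solid line at equal levels and a dashed line where GKO is at 50% of WT. All 21 Mt1 points lie below the solid line, and 2 of the Mt2 points lie above it.

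Among the clusters left unnamed, Slc30a8 was high in 2 and level between libraries. The cluster led by Ttr, Tmsb15b2 and Sfrp5 had 722 CPM in WT and 731 CPM in GKO, and the cluster led by Fam159b, Scg2 and Chgb had 206 and 233 CPM. In both, Mt1 was lower in GKO, at 182 and 107 CPM in the first (log2 ratio −0.76) and 485 and 290 CPM in the second (−0.74). Each had 1 raised marker, too few for a name, and lists of hormone cells were not used for naming. Ttr is a fixed α marker, and Rbp4, another leading gene of the second, a fixed δ marker. Glucagon-led and somatostatin-led barcodes had Mt1 ratios of −0.069 and −0.14. Whether these 2 clusters hold hormone cells was not tested.

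Mt1 and Mt2 went together from barcode to barcode in most classes. Over insulin-led barcodes thinned once to 5000 UMIs, which share library and depth, Pearson's r between their log-scaled UMIs was 0.55 in WT (2258 barcodes) and 0.39 in GKO (871 barcodes). Between Mt1 and Slc30a8 r was 0.054 and 0.048. In WT a Mt2 UMI was found in 3.95% of barcodes with no Mt1 UMI, 23.3% of those with 1 to 4 and 62.8% of those with 5 or more. In GKO the shares were 2.32%, 18.1% and 40.0%. Activated stellate-like and macrophage-like barcodes gave r of 0.72 and 0.57 in WT and 0.61 and 0.51 in GKO. It was 0.29 and 0.24 in glucagon-led, 0.14 and 0.17 in somatostatin-led, 0.33 and 0.24 in Ppy-led and 0.45 and 0.31 in quiescent stellate-like barcodes. In endothelial-like barcodes, with few UMIs of either gene, it was 0.093 and −0.016. Low counts lower r, and the levels of both genes differed between classes and libraries. Differences in r between them are therefore not read as closer or looser ties of the genes. The number of Mt1 UMIs per Mt2 UMI in insulin-led barcodes was 6.13 in WT and 6.19 in GKO, so both genes were lower in the same proportion.

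Over 16 sums of class and library and 5807 genes, the genes most like Mt1 in their log2 CPM were Sdc4 (r = 0.94), Mt2 (0.93), Pid1 (0.87), Hpgd (0.85) and Ifi30 (0.84). For Mt2 they were Mt1 (0.93), Sdc4 (0.84), Celf2, Qpct and Serp1 (all 3 between 0.78 and 0.79). For Slc30a8 they were Nell1 (0.98), Spc25 (0.97), Dapl1 (0.96), Ddc (0.95) and Skap1 (0.95). These sums share libraries and cell classes. Within insulin-led barcodes, among 2934 genes found in at least 10% of thinned barcodes of both libraries, a limit that Mt2 missed in GKO, the 5 genes closest to Mt1 were Cd81, with r of 0.29 in WT and 0.31 in GKO, and mt-Co2, Ftl1, mt-Atp6 and Chga, with r between 0.24 and 0.36.

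Most other genes of zinc handling were within 1.5-fold in insulin-led barcodes, as most genes were. Among all genes with at least 20 UMIs, 4.99% were lower in GKO by that fold and 6.05% higher. Of 26 listed zinc transporters, regulators and further metallothioneins, 20 had at least 20 UMIs. Of these 20, 2 were lower by 1.5-fold or more, 1 was higher and 17 were neither, near those shares for a list this short. The lower ones were Mt3, the metallothionein known from brain, with 10.6 CPM in WT and 6.19 in GKO (−0.78, −1.003 to −0.56), and Slc39a4, a zinc importer, with 24 UMIs in WT and 0 in GKO. The higher one was Slc39a8, another importer, with 23 and 16 UMIs (0.92, −0.10 to 1.90). Slc39a7, which releases zinc from the endoplasmic reticulum, was the 1 listed gene past 50 CPM, with 56.2 and 72.1 CPM (0.36). Mtf1 was at 11.7 and 14.4 CPM (0.30, 0.14 to 0.46). Slc30a1, the zinc exporter of the cell surface and a known Mtf1 target, was at 5.04 and 4.15 CPM (−0.28, −0.57 to −0.0027).

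Of 12 glucocorticoid-responsive genes, 2 were lower by 1.5-fold or more and 10 were neither at the limit of 20 UMIs in insulin-led barcodes, beside 4.99% lower and 6.05% higher among all genes at that limit. Fkbp5, a chaperone partner that restrains the glucocorticoid receptor, was at 28.0 and 14.5 CPM (−0.95, −1.09 to −0.80). Fkbp5 was also lower in the glucagon-led, somatostatin-led and Ppy-led barcodes, with log2 ratios of −0.80, −0.79 and −0.74. Zbtb16, a zinc-finger repressor, had 86 and 5 UMIs (−2.66), and its ratios in the other hormone classes were −2.94, −3.01 and −2.77. Errfi1, an inhibitor of the EGF receptor, went the other way, with 22.6 and 33.7 CPM in insulin-led barcodes (0.58, 0.47 to 0.68) and log2 ratios of 0.48, 0.66 and 0.67 in glucagon-led, somatostatin-led and Ppy-led ones. Ddit4 was at 12.7 and 16.2 CPM in insulin-led barcodes (0.35, 0.20 to 0.50). Tsc22d3 was at 17.3 CPM in both libraries. Sgk1 was at 5.03 and 5.09 CPM in insulin-led barcodes. Its log2 ratios were −0.67 in glucagon-led, −0.80 in somatostatin-led and −0.64 in Ppy-led ones. Dusp1 was past 1.5-fold in somatostatin-led barcodes only, at 73.7 and 44.5 CPM (−0.73). Klf9 was at 57.2 and 57.6 CPM and Glul, glutamine synthetase, at 59.7 and 55.6 CPM. At that limit of 20 UMIs, 4 of the 12 were lower in glucagon-led, 5 in somatostatin-led and 3 in Ppy-led barcodes. Higher by 1.5-fold or more were 0, 1 and 2 of them. Among all genes, 4.68%, 4.26% and 3.27% were lower by that fold in these classes, and 4.72%, 4.72% and 5.8% higher.

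No gene of the 13 for oxidative and metal stress, all with at least 20 UMIs, was past 1.5-fold in insulin-led barcodes. Among all genes at that limit, 4.99% were lower and 6.05% higher by that fold, so having none in a list this short is near those shares. The heat shock genes Hspa1a (217 and 223 CPM), Hspa1b (192 and 189 CPM) and Dnajb1 (119 and 103 CPM) were at similar levels, as were Sod1 (53.2 and 50.5 CPM) and Gpx1 (52.8 and 56.8 CPM), enzymes that remove reactive oxygen. Gclm, a subunit of the enzyme that starts glutathione synthesis, was at 56.9 and 66.3 CPM (0.22), and Hmox1, heme oxygenase, at 5.58 and 7.41 CPM (0.41). Of the 8 immediate early genes that cell dissociation is known to induce, none was past 1.5-fold, beside the same shares among all genes. Fos was at 144 and 130 CPM (−0.15), Fosb at 53.5 and 45.0 CPM (−0.25), Egr1 at 86.1 and 76.8 CPM (−0.17), Jun at 181 CPM in both and Btg2 at 88.9 and 103 CPM (0.21).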

How the data were processed

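Islet cells of 1 WT and 1 GKO library were analysed. Per the file headers, the authors made the UMI table with Cell Ranger 5.0.1. The deposited values are raw counts, without scaling, and precede the authors' removal of ambient RNA. Per the labels the build is mm10. The study's methods state that reads were down-sampled where this was needed, with no amount given.

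Barcodes under 500 genes or above 10% mitochondrial UMIs were dropped, and doublets were not called beyond the sort for single cells. UMIs were summed per class and library, scaled to CPM and compared as log2 ratios with exact conditional intervals. Shares have exact Clopper-Pearson intervals. Nonendocrine barcodes were clustered with scanpy 1.11.5 (2000 variable genes, 20 components, 15 neighbors, resolution 0.8) without hormone, mitochondrial and member genes. Clusters whose leading genes went against a name were left unnamed, a step made after their genes were seen. Clusters with too few raised markers of any list were left unnamed as well. The β, α, δ and γ lists were not used for naming. Shares after thinning are means over all draws, and correlations use 1 draw. Named genes were the members, genes of fixed lists past 1.5-fold or at 50 CPM in insulin-led barcodes, and the 5 most like each member. Mtf1, Slc30a1, Tsc22d3, Errfi1, Ddit4, Sgk1, Dusp1 and Hmox1 were added after their values were seen. Members and lists were chosen with earlier results of these data known.

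Promoters are from RefSeq (GRCm38.p6), where 2 of the 3 members matched, and gene coordinates from GENCODE. TMM factors came from edgeR 4.0.16. Ratios and intervals were tried on counts simulated from the Poisson model that the intervals assume, which leaves out uneven spread between barcodes. Alternatives changed the filters, classes, totals, weights and free RNA.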

Additional observations from a re-analysis of the deposited data

Results flagged for a closer look

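Slc30a8 went in opposite directions between hormone classes, moving one way in some classes and the other way in another. The log2 ratio of GKO to WT was 0.12 in glucagon-led and 0.33 in somatostatin-led barcodes, and −0.33 in Ppy-led barcodes. The difference between these ratios was not tested, since each genotype has 1 library. In somatostatin-led barcodes the ratio moved with the choice of barcodes, from −0.063 without the 7.6% with most UMIs and 0.064 after thinning to 0.61 with every other hormone below 5% and 1.09 with somatostatin at 25% or more. Among barcodes with under 1% of UMIs from insulin and glucagon, Slc30a8 was at 10.2 and 11.6 CPM in somatostatin-led and at 37.0 and 32.3 CPM in Ppy-led barcodes, in WT and GKO. Ppy-led barcodes with 5% or more, rich in Slc30a8, were 105 of 717 in WT and 65 of 669 in GKO. The part of this mixture in the Ppy-led ratio was not tested. No group held the 4 samples that a search for outlying samples needs.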

How the results depend on the processing

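Under the 12 alternatives tried, 1 of them (the limit on acinar and macrophage markers) added after the data were seen, the insulin-led ratio of Mt1 lay between −1.29 and −1.14 and that of Mt2 between −1.35 and −1.13, always below 0. For Mt1 the values beyond the counting interval were −1.29 with stricter limits (1000 genes, 5% mitochondrial UMIs), −1.26 with every other hormone below 5%, −1.26 over a total without hormone genes, −1.26 with TMM factors and −1.28 after subtracting free RNA. For Mt2 they were −1.35 with those limits and −1.32 with other hormones below 5%. Slc30a8 in insulin-led barcodes was 0.055 without a filter on barcodes, −0.067 over a total without hormone genes and −0.074 with TMM factors, so its sign depends on the scaling. In macrophage-like barcodes, where Slc30a8 had 15 UMIs in each library, its ratio of −1.10 reversed to 0.47 without the 7.6% of barcodes with most UMIs. Glucagon-led ratios of Mt1 and Mt2 changed sign in 2 and 3 of 12 alternatives, somatostatin-led ratios of each gene in 1, and Ppy-led ratios of all 3 genes in none. The causes were not tested. Genes lower by 1.5-fold in insulin-led barcodes numbered 13 at the limit of 50 CPM and 721 at 20 UMIs, and higher ones 4 and 874; more genes were tested at the second limit.

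No paired analysis was possible because each genotype has 1 library, and leaving out a replicate was not possible either. Depth limited Mt2 in somatostatin-led, endothelial-like and quiescent stellate-like barcodes and Slc30a8 in the large nonendocrine classes.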
